A study of Mus musculus with 8 samples.

Results

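The integrated stress response and serine synthesis genes were followed here in mouse embryonic stem cells (mESCs) after morphine: the transcription factors Atf4, Atf3 and Ddit3, the stress-induced genes Trib3, Chac1 and Sesn2, the asparagine synthetase gene Asns, and Phgdh, Psat1 and Shmt2 of the serine and glycine pathway. Members were the loci of the RNA-Seq count table whose most frequent gene name was one of these symbols. All 10 were found, each as 1 locus, among 44396 loci in the table, and all 10 were among the 20350 loci with enough counts to be tested. Measured values played no part in the rule, but the set was proposed when earlier results of these data were known.

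The integrated stress response begins when a stress-sensing kinase phosphorylates the translation factor eIF2. Protein synthesis then slows in general, while the mRNA of the transcription factor ATF4 is translated more, so that ATF4 protein can rise with little change in Atf4 mRNA. ATF4, often paired with a C/EBP family factor, activates genes for amino acid synthesis, uptake and tRNA charging, the serine and one-carbon enzymes among them, and, when stress lasts, the pro-apoptotic factor CHOP, the product of Ddit3. Embryonic stem cells proliferate fast and draw on serine and one-carbon metabolism for nucleotide synthesis and methylation.

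The cells were an Oct4-GFP mESC line grown without feeder cells on gelatine, in serum replacement medium with leukaemia inhibitory factor and 2 kinase inhibitors and with added non-essential amino acids, a supplement that holds serine, glycine and asparagine. Control mESCs received NaCl (0.9%) and treated mESCs 10 µM morphine, an opioid receptor agonist, both for 24 h and both in the same line. Poly(A) RNA was sequenced from 2 control and 2 morphine samples, and H3K27me3, the histone mark laid down by the Polycomb complex PRC2, was mapped by ChIP-Seq in 2 samples of each condition. The study describes the RNA as duplicate samples and the sources used here do not say whether they were separate cultures, so a p-value measures the spread between these samples, which may be technical.

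The RNA-Seq libraries held 25081266 to 29531096 counted reads. The 10 pluripotency markers summed to between 5363 and 5570 CPM (counts per 1000000 counted reads, with library sizes scaled by TMM) in the 4 libraries, while markers of primitive endoderm, mesoderm, neuroectoderm, trophectoderm and feeder fibroblasts summed to between 5.81 and 162 CPM per list. Among these other-lineage markers Foxa2, Mesp1, Pax3, Elf5, Col3a1, Dcn and Postn had at most 3 counts in any library at the locus used. Neurod1 was not in the table. Others were detected, the highest of them Tubb3 at 103 to 117 CPM, Nes at 22.3 to 25.4 CPM and Dab2 at 16.9 to 20.9 CPM. Some of these names had several loci (Sox17 7, Pdgfra 6, Postn 5 and Foxa2 3, for example). Only the locus with the highest mean count entered, so these lists may be undercounted. Each pluripotency marker had 1 locus. Klf2, a pluripotency factor, was the only gene of these marker lists past the threshold (log2 fold change 0.33, false discovery rate (FDR) 0.0151 by edgeR's quasi-likelihood test with Benjamini-Hochberg adjustment), and with the offset for length and GC content described below it did not pass (0.14, FDR 0.148). Across the whole table, the log2 fold change rose with the GC content of the locus: its median was -0.21 over loci with 35 to 40% GC and 0.13 over those with 55 to 60% GC. This trend touches most of the 10 genes and is taken up with their values.

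Whether the promoters of the 10 genes carry the DNA element to which ATF4 binds was read from the RefSeq sequence (GRCm38.p6, the same coordinates as mm10), from 250 bases before to 50 bases after each annotated start. The C/EBP-ATF response element was spelled TGATGNAA and searched on both strands with N for any base. It was present in 4 of the 11 windows of the 10 genes (Asns, Atf3, Chac1 and Trib3) and in 3.97% of all 32851 promoter windows. The 10 genes were chosen as a pathway of ATF4. Those without a match may carry the element outside these 300 bases. The matches are shown with 10 bases on either side, 5′ to 3′ on the strand of the gene, because this element is the one that ATF4 and C/EBP factors are known to bind; capitals mark the element, which reads as its reverse complement in Atf3, Chac1 and Trib3.
Asns: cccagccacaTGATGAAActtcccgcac
Atf3: cttctcgcacTTGCATCAccaagtccgc
Chac1: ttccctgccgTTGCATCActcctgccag
Trib3: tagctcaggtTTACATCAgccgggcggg
The Asns stretch lies at chr6:7693215-7693242 on the minus strand, where the first base of the element is at position -23 from the start. The Atf3 stretch lies at chr1:191183426-191183453 on the minus strand with the element at -110 from the start of the shorter transcripts, inside the span of the long Atf3 locus. The Chac1 stretch lies at chr2:119351039-119351066 on the plus strand with the element at -193, and that of Trib3 at chr2:152344029-152344056 on the minus strand with the element 15 bases after the start, inside the transcribed part. The palindromic cAMP response element TGACGTCA, to which ATF and CREB factors bind, was in 1.79% of all windows, and the ER stress response element, CCAAT and CCACG with 9 bases between them, was in 0.119%. Neither was in a window of the 10 genes, which says only that these letters were not in these 300 bases.

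The 10 genes covered a wide range of expression. Per kb of exon, which allows levels of different genes to be compared, Asns had the highest control level at 276 ± 5.9 CPM per kb (SD, n = 2) and Atf3 the lowest at 2.79 ± 0.079 CPM per kb. Between them came Atf4 at 192 ± 6.9, Psat1 at 100.2 ± 1.6, Shmt2 at 87.3 ± 4.4, Phgdh at 19.0 ± 2.9, Ddit3 at 15.5 ± 0.36, Trib3 at 13.6 ± 0.69, Sesn2 at 13.3 ± 0.41 and Chac1 at 6.94 ± 0.50 CPM per kb (all SD, n = 2). In control mESCs the lower value of each gene lay above the higher value of the next, except that the ranges of Trib3 and Sesn2 overlapped. In morphine-treated mESCs the pairs Psat1 and Shmt2, and Sesn2 and Trib3, overlapped and the other neighbours kept apart. Among the tested loci, ranked over all 4 libraries, Asns stood at percentile 99.2, Atf4 at 98.7, Psat1 at 96.7, Shmt2 at 96.3, Ddit3 at 78.1 and Atf3 at 47.0, so Asns, Atf4, Psat1 and Shmt2 were among the most abundant messages of these cells and the stress-induced factors were not.

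**Figure D1:**
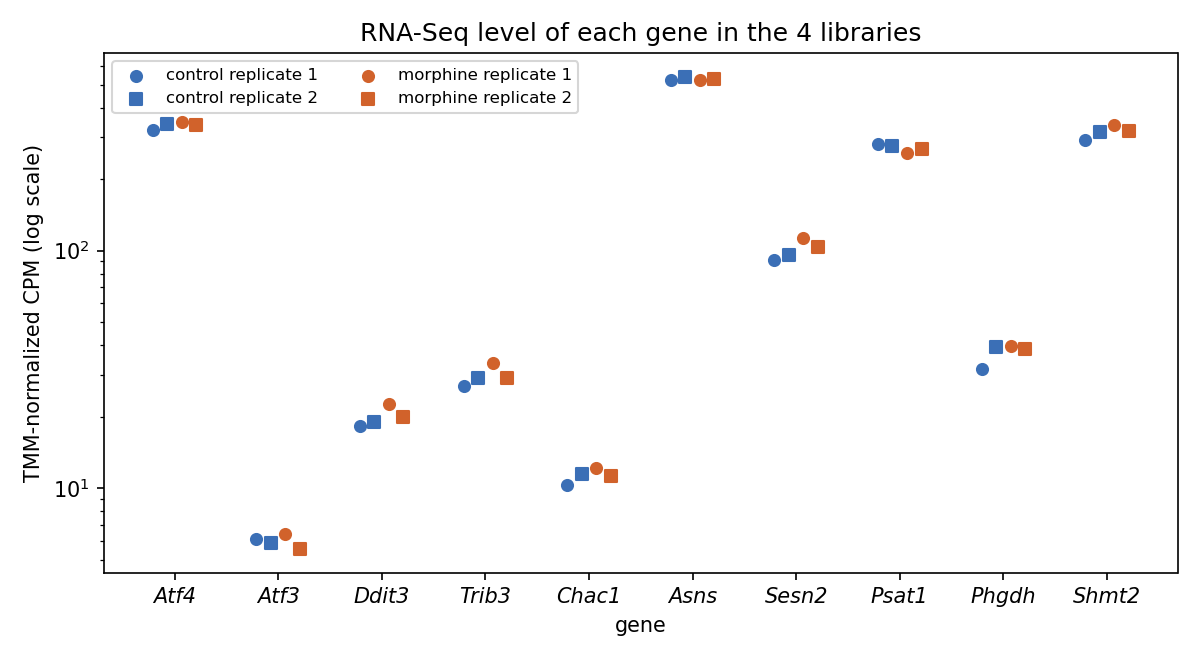
Level of each of the 10 genes in the 4 RNA-Seq libraries, as TMM-normalized CPM on a log axis; blue marks control and orange morphine, and circles and squares mark replicates 1 and 2. Levels run from 5.54 to 6.40 CPM in Atf3 to between 521 and 540 CPM in Asns.

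None of the 10 genes passed an FDR of 0.05, in a table where 1.52% of tested loci did (309 of 20350; 0.614% higher and 0.904% lower after morphine). The test was edgeR's quasi-likelihood test with Benjamini-Hochberg adjustment over all tested loci, and this test gives every FDR below unless another is named. Its exact and likelihood ratio tests also called 0 of the 10, beside 790 and 840 of all 20350 tested loci. DESeq2 called 1 (Sesn2) of the 6 to which it gave an adjusted p, beside 652 of 6147 loci. Atf3, Ddit3, Trib3 and Chac1 had none, since DESeq2 leaves out loci of lower counts. At an unadjusted p under 0.05, 3 of the 10 were higher (Sesn2, Ddit3 and Shmt2) and none was lower, beside 9.7% of all tested loci higher and 10.8% lower. The log2 fold change was positive in 7 of 10 genes, beside 50.3% of all tested loci, and the median over the 10 was 0.10, beside 0.0013 over all tested loci. In bulk RNA a change in the level per cell and a change in the share of cells that express a gene cannot be told apart. The individual values follow by role, from the transcription factors to the enzymes.

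Atf4 (chr15:80255184-80257545, plus strand; mm10 throughout) encodes the central transcription factor of the response. Its level was 323 and 340 CPM in the control libraries and 349 and 339 CPM in the morphine libraries, from 8815 to 10014 reads per library. Morphine 2 lay just under control 2, so the groups overlapped. The estimated log2 fold change was 0.05 (SE 0.045, 95% interval -0.05 to 0.15, FDR 0.561), which places the ratio of morphine to control between 0.968 and 1.11. The count is of mRNA, so the translation of Atf4, the step that the pathway regulates, was not measured.

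Atf3 (chr1:191170296-191218039, minus strand) encodes a stress-induced factor that ATF4 activates and that in turn represses many of its targets. Its level was 6.12 and 5.88 CPM in control and 6.40 and 5.54 CPM in morphine libraries, with 156 to 173 reads in each. The highest and the lowest of the 4 values were both from morphine-treated cells. Its log2 fold change came to -0.01 (SE 0.13, 95% interval -0.29 to 0.27, FDR 0.982), the widest interval of the 10 genes, at the lowest read count of the 10.

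Ddit3 (chr10:127290793-127296293, plus strand) encodes CHOP, the factor that links prolonged stress to apoptosis. Its level was 18.3 and 18.9 CPM in control and 22.7 and 19.9 CPM in morphine libraries. Both morphine values lay above both controls, and morphine 1 stood farther off than morphine 2. In edgeR the log2 fold change was 0.19 (SE 0.083, 95% interval 0.01 to 0.37, unadjusted p = 0.0428, FDR 0.227 by edgeR). The exons of Ddit3 and of Mars, the methionyl-tRNA synthetase gene on the opposite strand, share 119 bp, or 9.91% of the Ddit3 exon length. Whether reads were assigned by strand is not given in the sources used here. The Mars locus had 8306 to 9676 reads per library and a log2 fold change of 0.01.

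Trib3 (chr2:152337425-152344060, minus strand) encodes a pseudokinase that restrains ATF4 and CHOP and is among their most responsive targets. Its level was 26.97 and 29.0 CPM in control and 33.6 and 29.1 CPM in morphine libraries. Both morphine values were above both controls, although morphine 2 (29.13 CPM) was close to control 2 (28.98 CPM) and morphine 1 stood apart. The log2 fold change was 0.16 (SE 0.080, 95% interval -0.01 to 0.34, FDR 0.278).

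Chac1 (chr2:119351242-119354326, plus strand) encodes an enzyme that degrades glutathione and is induced through ATF4, ATF3 and CHOP. Its level was 10.3 and 11.4 CPM in control and 12.1 and 11.2 CPM in morphine libraries, and the groups overlapped. The estimated log2 fold change was 0.10 (SE 0.098, 95% interval -0.12 to 0.31, FDR 0.628).

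Sesn2 (chr4:132492804-132510499, minus strand) encodes Sestrin2, a leucine sensor that lowers mTORC1 activity and that both ATF4 and p53 can induce. Its level was 91.3 and 95.4 CPM in control and 113 and 104 CPM in morphine libraries, from 2509 to 2918 reads in each. The 2 morphine values were above the 2 control values by more than the distance between the controls. The log2 fold change of 0.21 (SE 0.057, 95% interval 0.09 to 0.34) was the largest of the 10, with the lowest FDR, 0.0781 by edgeR's quasi-likelihood test, above the threshold of 0.05. The call depended on the setting: the FDR was 0.0364 in DESeq2, which called 10.6% of the 6147 loci with an adjusted p, 0.0157 without the filter on low counts (5.44% of loci called) and 0.0205 without control 2 (7.67% called). It was 0.274 without control 1, 0.0562 without morphine 2, 0.529 without morphine 1 and 0.163 with the offset. Both morphine libraries being above both controls was also seen in Ddit3, Trib3 and Shmt2, thus in 4 of the 10 genes, beside 26% of all tested loci.

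Asns (chr6:7675171-7693182, minus strand) encodes the enzyme that makes asparagine from aspartate, a standard readout of amino acid limitation. Its level was 524 and 540 CPM in control and 521 and 529 CPM in morphine libraries, from 13167 to 15907 reads in each. The groups overlapped, and the values of each condition differed by no more than a few percent (coefficient of variation 2.13% in control and 1.19% in morphine). Its log2 fold change came to -0.02 (SE 0.042, 95% interval -0.11 to 0.07, FDR 0.835), the smallest standard error of the 10, so the ratio lay between 0.926 and 1.05.

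Phgdh (chr3:98313171-98339969, minus strand) encodes 3-phosphoglycerate dehydrogenase, which commits glycolytic carbon to serine. Its level was 31.6 and 39.3 CPM in control and 39.8 and 38.4 CPM in morphine libraries. Control 1 was the low library, and the other 3 lay within 38.4 and 39.8 CPM. In edgeR the log2 fold change was 0.14 (SE 0.089, 95% interval -0.06 to 0.33, FDR 0.413), and this value rested on control 1: it was -0.01 without control 1 and 0.31 (FDR 0.0196) without control 2.

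The Phgdh mRNA also has near-identical copies elsewhere in the genome, which the other 9 transcripts do not at 95% identity over 100 bp. There were 10 such alignments outside Phgdh and 6 of them covered over 90% of the transcript. The best, at chr8:75711462-75713289, was 98.8% identical over 1828 bp and is annotated as the processed pseudogene Gm7901. An unnamed locus of 1 exon there had 239 and 278 reads in control and 255 and 282 in morphine libraries, with a log2 fold change of 0.15 (SE 0.10, FDR 0.445). Loci at the other copies had at most 18 reads in any library. How reads that map to several places were counted is not given in the sources used here, so the level of Phgdh is uncertain by the share of its reads that the copies took or gave.

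Psat1 (chr19:15905123-15925059, minus strand) encodes phosphoserine aminotransferase, the step after Phgdh. Its level was 281 and 275 CPM in control and 258 and 268 CPM in morphine libraries. It was the only one of the 10 genes with both morphine values below both controls, beside 26.8% of all tested loci, and the gap was small. The log2 fold change was -0.08 (SE 0.045, 95% interval -0.18 to 0.02, FDR 0.341).

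Shmt2 (chr10:127517123-127522444, minus strand) encodes the mitochondrial serine hydroxymethyltransferase, which splits serine into glycine and a one-carbon unit. Its level was 293 and 314 CPM in control and 337 and 319 CPM in morphine libraries. Both morphine values were above both controls, with morphine 2 near control 2. The estimated log2 fold change was 0.11 (SE 0.050, 95% interval 0.00 to 0.22, unadjusted p = 0.0497, FDR 0.243 by edgeR). Along the pathway from Phgdh over Psat1 to Shmt2 the 3 estimates thus had different signs, and none passed the threshold. Shmt2 shares 32 bp of exon, 0.92% of its length, with Ndufa4l2 on the opposite strand, a locus with at most 15 reads in any library.

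**Figure D2:**
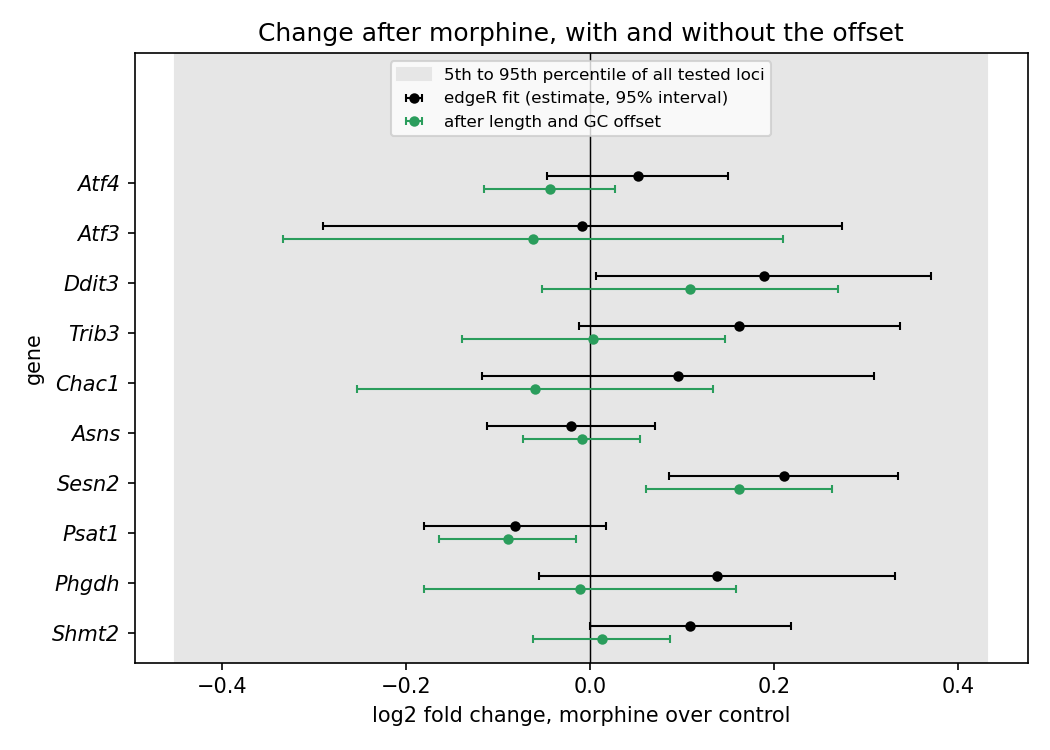
Log2 fold change (morphine over control) of the 10 genes, black from edgeR with TMM and green after an offset for length and GC content, with bars for the 95% interval of each estimate; the grey band spans the 5th to 95th percentile of all tested loci, -0.45 to 0.43. The black bars of Ddit3, Sesn2 and Shmt2 lie above 0, and of the green bars that of Sesn2 lies above 0 and that of Psat1 below it.

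The changes of the 10 genes lay within the range of those of other genes. Their median absolute log2 fold change was 0.10, beside 0.14 over all tested loci, which include many at lower counts, and all 10 estimates lay between -0.08 and 0.21. Sesn2, Ddit3, Trib3 and Phgdh were above the 75th percentile of all tested loci, 0.137. The 95% intervals of the ratio ran at most from 0.818, the lower end for Atf3, to 1.29, the upper end for Ddit3. An FDR above the threshold does not show that a gene was unchanged, but a change beyond these bounds lay outside the interval of every one of the 10 genes.

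The GC content of the 10 loci moved with their estimates. It ran from 48.3% in Asns to 58.2% in Trib3, with a median of 54.0%, beside 49.7% over all tested loci. Asns, Psat1 and Atf3, with the lowest GC content of the set, were the 3 genes with a negative estimate. Across all tested loci the log2 fold change correlated with GC content (Spearman's rho 0.48, across loci of the same 4 libraries), and across the 10 genes rho was 0.53 and Pearson's r 0.67, given as a description of genes that share libraries. The estimates were therefore computed again with an offset fitted per library on length and GC content, and the cause of the trend was not tested.

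After the offset the median over the 10 genes was -0.01, in place of 0.10, with a range of -0.09 to 0.16. The estimates of Trib3 and Shmt2 became 0.004 (FDR 0.988) and 0.01 (FDR 0.918), and those of Atf4, Chac1 and Phgdh became -0.04, -0.06 and -0.01. Sesn2 kept the largest estimate at 0.16 (95% interval 0.06 to 0.26, FDR 0.163), followed by Ddit3 at 0.11 (95% interval -0.05 to 0.27, FDR 0.585). Psat1 had the lowest at -0.09 (95% interval -0.16 to -0.01, FDR 0.303). With the offset no gene of the 10 passed the threshold, beside 0.433% of tested loci, and the correlation with GC content was 0.18 over the 10 and 0.0098 over all tested loci. The offset was fitted to these same loci, so the low value over all of them follows from the fit. A change after morphine that itself followed GC content would be taken out as well, which was not tested.

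**Figure D3:**
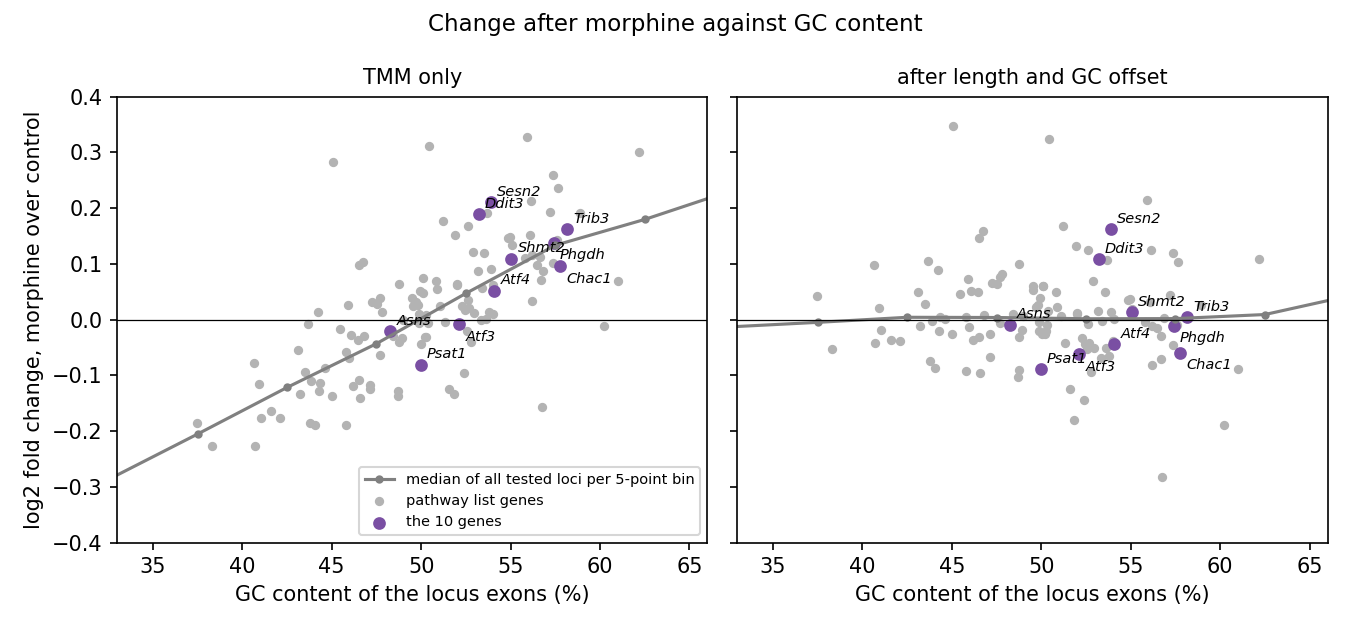
Log2 fold change against the GC content of the locus exons (%), before (left) and after (right) the length and GC offset; purple points are the 10 genes, grey points the genes of the pathway lists and the line the median of all tested loci in bins of 5 percentage points. On the left the line climbs from -0.21 at 35 to 40% GC to 0.13 at 55 to 60% GC and most of the 10 genes lie near it; on the right it is close to 0 and Sesn2 and Ddit3 stand highest among the 10 genes, below some pathway list genes.

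The rest of the pathway was read from 7 lists of 119 genes, of which 117 were tested. None of the 117 passed an FDR of 0.05 in edgeR's quasi-likelihood test, beside 1.52% of all tested loci; the exact test called 2, the likelihood ratio test 2 and DESeq2 9 of the 95 with an adjusted p, where the first 2 tests called 790 and 840 of all 20350 tested loci and DESeq2 652 of 6147. At an unadjusted p under 0.05, 16 were higher and 18 lower, beside 9.7% and 10.8% of all tested loci, which is also the background for the count in each list, and the median log2 fold change was 0.01. The counts given for each list are without the offset unless stated. The upstream group of eIF2 kinases, eIF2 and eIF2B subunits and eIF2 phosphatase regulators (16 genes) had a median of 0.02, with 4 genes lower and none higher at an unadjusted p under 0.05. After the offset its median was 0.005, and only Eif2s2 (0.10) and Ppp1r15b (-0.09) had an unadjusted p under 0.05. The extremes without the offset were as follows. The lowest estimate of this group was Eif2s3x, the gamma subunit of eIF2, with 105 and 94.7 CPM in control and 86.5 and 89.1 CPM in morphine libraries (log2 fold change -0.19, FDR 0.115, and -0.09 after the offset). Its highest was Eif2b2, a subunit of the eIF2 exchange factor, with 58.0 and 65.7 CPM in control and 69.8 and 66.04 CPM in morphine libraries (0.13, FDR 0.290; 0.02 after the offset).

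Other bZIP factors and stress targets of ATF4 (16 tested of 18; Fgf21 and Stbd1 had too few reads) had the highest median of the lists, 0.14, with 7 genes higher and 1 lower at an unadjusted p under 0.05. Their median GC content of 55.7% was also the highest of the lists, and after the offset their median was 0.01. With the offset only Ndrg1 (0.32) and Atf5 (-0.19) had an unadjusted p under 0.05. The highest estimate was Ndrg1, a stress- and hypoxia-responsive gene, at 4.88 and 5.64 CPM in control and 6.84 and 6.25 CPM in morphine libraries (0.31, FDR 0.212; 0.32 after the offset). The lowest was Vldlr, a lipoprotein receptor that ATF4 can induce, at 4.55 and 5.03 CPM in control and 4.23 and 4.48 CPM in morphine libraries (-0.14, FDR 0.633; -0.03 after the offset).

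Amino acid transporters (12 genes) had a median of -0.01, with 1 gene higher and 2 lower at an unadjusted p under 0.05. The highest estimate was Slc1a5, a glutamine carrier, at 75.9 and 80.5 CPM in control and 87.3 and 86.4 CPM in morphine libraries (0.15, FDR 0.152; 0.03 after the offset). The lowest was Slc7a11, the cystine antiporter and a classical ATF4 target, at 1.38 and 1.16 CPM in control and 0.870 and 1.28 CPM in morphine libraries (-0.23, FDR 0.704; -0.04 after the offset). The control and morphine values of Slc7a11 overlapped at this low level. Its name had 2 loci and only the one with the higher mean count was used, so the level may be undercounted.

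The other one-carbon and amino acid synthesis enzymes (23 genes) had a median of 0.02, with 3 higher and 1 lower at an unadjusted p under 0.05. Aldh1l1, the cytosolic enzyme that oxidizes 10-formyltetrahydrofolate, had the highest estimate and the lowest FDR of the 117 genes. Its level was 19.4 and 21.8 CPM in control and 26.8 and 25.01 CPM in morphine libraries, without overlap (0.33, 95% interval 0.15 to 0.50, FDR 0.0610). It was called in the exact and likelihood ratio tests, with total counts and with the replicate block. Those fits called 790, 840, 515 and 1128 of 20350 loci. Aldh1l1 was also called without the low-count filter, where 1657 of 30482 loci were, and was not among the genes called in DESeq2. After the offset the estimate of Aldh1l1 was 0.21 (FDR 0.212), below that of Mthfd2l, a mitochondrial folate enzyme at under 1 CPM, at 0.35 (FDR 0.718). The name Mthfd2l had 2 loci, and only the one with the higher mean count was used.

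Cytosolic aminoacyl-tRNA synthetases (21 genes, with the tRNA export factor Xpot) had a median of 0.01 and divided into 3 higher and 4 lower at an unadjusted p under 0.05. Farsa, a subunit of the phenylalanyl-tRNA synthetase, was at 153 and 164 CPM in control and 184 and 175 CPM in morphine libraries (0.18, FDR 0.0934). Dars, the aspartyl-tRNA synthetase, was at 221 and 217 CPM in control and 190 and 200.3 CPM in morphine libraries (-0.16, FDR 0.0900). Their GC contents were 51.2% and 41.6%, and after the offset the estimates were 0.17 and -0.04.

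Chaperones and sensors of the endoplasmic reticulum (20 genes), which mark the ATF6 and XBP1 arms of the unfolded protein response, had a median of -0.01, with 2 higher and 4 lower at an unadjusted p under 0.05. Syvn1, a ubiquitin ligase of ER-associated degradation, was at 49.4 and 51.1 CPM in control and 61.3 and 57.0 CPM in morphine libraries (0.24, FDR 0.0695, and 0.10 after the offset). Like Aldh1l1, it was called in the exact and likelihood ratio tests, with total counts, without the low-count filter and with the replicate block. DESeq2 also called Syvn1, among 652 of 6147 loci. Dnajb9, an ER co-chaperone, was at 12.8 and 11.9 CPM in control and 10.95 and 10.1 CPM in morphine libraries (-0.23, FDR 0.208; -0.05 after the offset). Mitochondrial chaperones and proteases (9 genes), which rise when mitochondrial protein folding fails, had a median of -0.06, with 2 lower and none higher at an unadjusted p under 0.05. In this list Yme1l1, an inner membrane protease, had the lowest estimate (-0.18, FDR 0.119; 0.04 after the offset) and Clpp, a matrix protease, the highest (0.11, FDR 0.274; -0.03 after the offset, where Afg3l2, another inner membrane protease, was highest at 0.10 and Hspe1, a matrix co-chaperonin, lowest at -0.18).

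**Figure D4:**
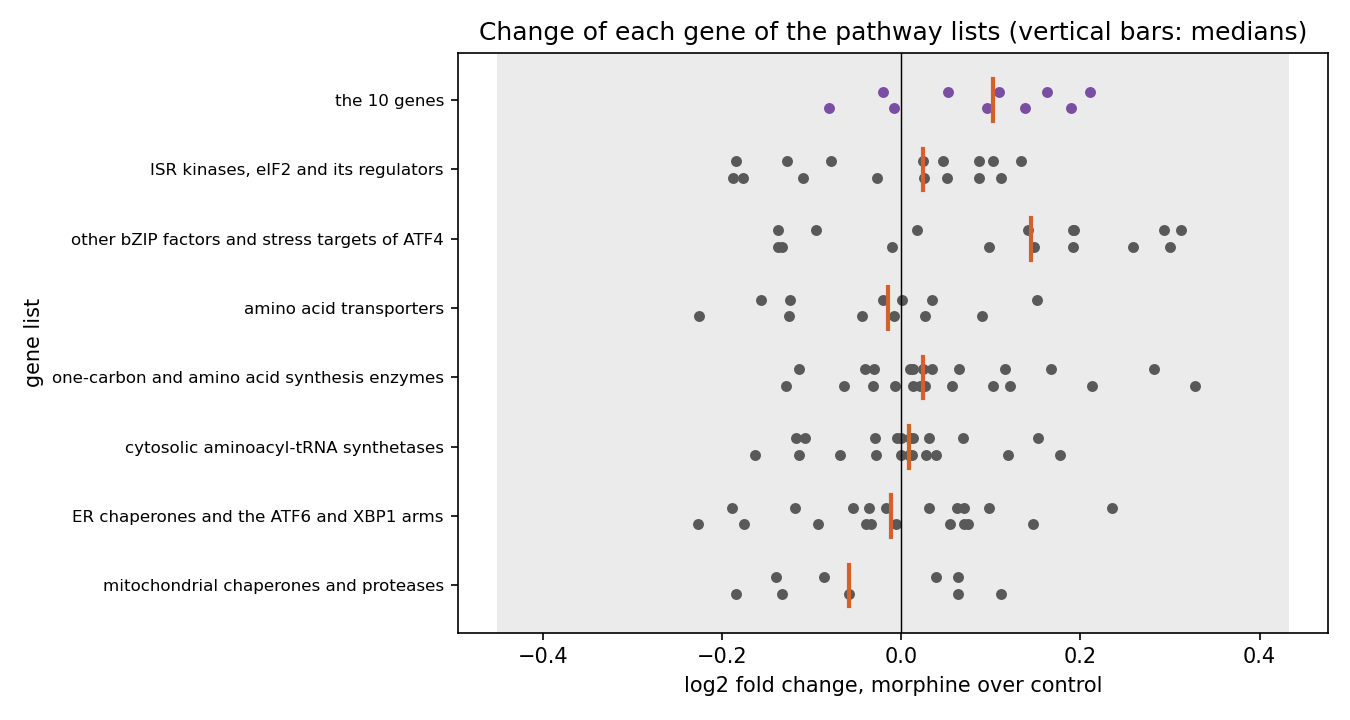
Log2 fold change (morphine over control) of each tested gene, 1 point per gene, for the 10 genes (purple) and the 7 pathway lists (grey); orange bars are list medians and the grey band spans the 5th to 95th percentile of all tested loci. Every point lies inside the band, and the list medians run from -0.06 to 0.14.

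H3K27me3 marks promoters that Polycomb keeps silent. For the 10 genes, a promoter was called marked if a peak overlapped the 1 kb on either side of an annotated start. None of the 10 had a promoter peak in any of the 4 ChIP-Seq libraries, which held 10305 and 13778 peaks in control and 8681 and 12282 in morphine-treated mESCs. Of 14211 genes with a tested RNA locus, 17.4% had a promoter peak in both control libraries and 17.6% in both morphine libraries. With a window of 3 kb, Chac1 had a peak in control 2 and the other 9 genes had none in any library, so the number marked in both libraries of a condition was 0 with either window. Peak lists give no read depth, so a level of H3K27me3 under the peak threshold could not be seen.

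The nearest peak lay far from most of the 10 starts. For Atf4 it was at 42.1 to 43.1 kb, for Ddit3 at 33.9 to 34.1 kb, for Trib3 at 81.1 to 81.6 kb and for Sesn2 at 85.9 to 86.3 kb in the 4 libraries. These peaks were at about the same place in control and morphine-treated mESCs. For Asns the distance was 106 kb in 3 libraries and 134 kb in morphine 1, and for Phgdh 39.4 to 39.5 kb in 3 libraries and 85.5 kb in morphine 1, the library with the fewest peaks.

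In the other members the nearest peak differed between libraries of the same or of both conditions. For Psat1 it was at 34.2 and 33.9 kb in the control libraries and at 135 kb in both morphine libraries. For Atf3 it was at 81.6 and 76.6 kb in control and at 57.1 kb in both morphine libraries. For Chac1, control 2 held a peak 1.99 kb from the start (chr2:119345034-119349244, score 51.2, where the lowest score in the lists is 50), while the distance was 81.0 kb in control 1 and 47.8 and 47.4 kb after morphine. For Shmt2, control 1 held a peak at 9.94 kb, while in the other 3 libraries the nearest was at 95.2 to 95.4 kb. The single peaks near Chac1 and Shmt2 were thus each in 1 of 2 control libraries.

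**Figure D5:**
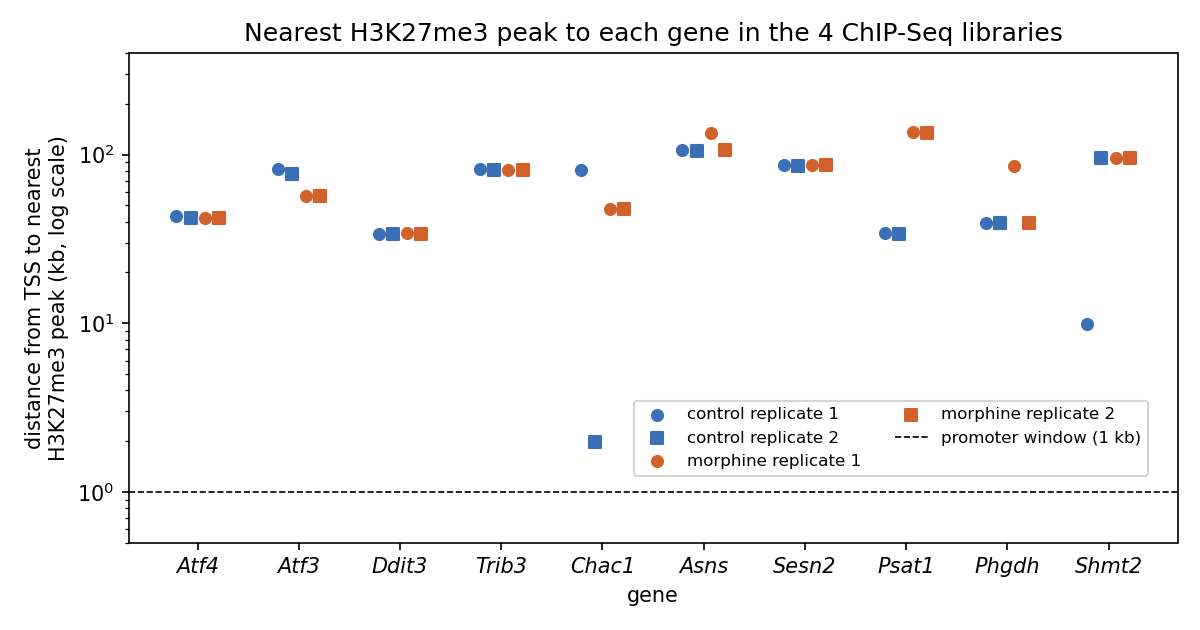
Distance (kb, log axis) from the annotated start of each of the 10 genes to the nearest H3K27me3 peak in the 4 ChIP-Seq libraries; blue is control and orange morphine, circles and squares are replicates 1 and 2, and the dashed line is the 1 kb promoter window. No point lies under the line; the closest is Chac1 in control replicate 2 at 1.99 kb.

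Promoter peaks in the pathway lists, which were chosen with earlier results known, were counted and not tested, and are to be read beside the 17.4% and 17.6% over all genes. No gene of the eIF2 list or of the mitochondrial list had one in any library. The number with a peak in both control libraries, and then in both morphine libraries, was 2 and 1 of 18 bZIP factors and stress targets, 3 and 3 of 23 one-carbon and amino acid enzymes, 1 and 1 of 21 tRNA synthetases, and 2 and 3 of 20 ER genes. Among the amino acid transporters, 2 of 12 had one in both control libraries and 4 of 12 in both morphine libraries: the gene pair that made the difference was Slc1a5 and Slc43a1, marked in each morphine library and in no control. The same was so for Edem1, an ER-associated degradation factor, while Jdp2, a bZIP repressor, was marked in each control and in neither morphine library. These 4 were singled out after their values were seen, and of all 14211 genes 176 had the first pattern and 106 the second. The log2 fold changes of their mRNA were 0.15 for Slc1a5, -0.02 for Slc43a1, -0.12 for Edem1 and 0.19 for Jdp2, with FDRs of 0.152, 0.9497, 0.235 and 0.171 by edgeR. After the length and GC offset they were 0.03, -0.05, -0.04 and 0.03.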

How the data were processed

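For RNA-Seq, the authors mapped reads to mm10 with HISAT2 2.1.0, assembled transcripts with StringTie 1.3.6 and the UCSC annotation, and deposited raw read counts per locus from featureCounts 1.6.4. For ChIP-Seq, the authors mapped reads with Bowtie2 2.3.5.1 and called peaks per library with MACS at a p cut-off of 1e-05; the deposited peak lists give each peak a score, used here as it stands. Loci without a gene name held 1.88 to 2.40% of the counts. Where a name had several loci, the one with the highest mean count was used.

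Counts were filtered by expression, scaled by TMM (factors 0.989 to 1.01) and tested in edgeR 4.0.16 (R 4.3.3) with the quasi-likelihood test, morphine against control, 2 libraries each, no covariate, Benjamini-Hochberg adjustment over 20350 loci. CPM is TMM-normalized, and intervals are at 95%. The length and GC offset used splines of 5 degrees of freedom per library. The main edgeR fit was tested on simulated counts, and the offset, the other alternatives and the peak and sequence searches were not. Libraries of both conditions share replicate numbers 1 and 2. The deviations of control 1 and morphine 1 from their group means correlated at 0.0264 over 20350 loci. With 2 libraries per condition, those of control 2 and morphine 2 only mirror them. The numbers were not treated as pairs, and a fit with a replicate block called 1128 loci in place of 309.

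Promoter peaks used starts of GENCODE vM21 basic. Promoter sequences were those of RefSeq (GRCm38.p6), found for all 10 genes, and copies were searched with blastn 2.17.0. The members and lists were chosen with earlier results of these data known. All 10 members are named; from each list every gene past the threshold, the highest and lowest estimate, and untested genes by name, except 1 gene that is not reported here. Alternatives were edgeR's exact and likelihood ratio tests, DESeq2 1.42.0, other scalings, no filter, a replicate block, the offset, and leaving out each library.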

Additional observations from a re-analysis of the deposited data

How the results depend on the processing

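There were 2 libraries per condition and 156 to 15907 reads per gene; the parts of counting error and of spread between libraries in the standard errors were not separated. The 309 loci called, of them 125 higher and 184 lower, became 790 with edgeR's exact test, 840 with its likelihood ratio test, 652 (of 6147 with an adjusted p) with DESeq2, 1657 without the low-count filter, 515 (281 higher, 234 lower) with total counts and no scaling factor, and 88 (58 higher, 30 lower) with the length and GC offset. With the replicate block it became 1128, of the 10 genes 0 were called and of the pathway genes 3; block and offset together gave 305, and RLE scaling 312. The 10 genes had 1 call (Sesn2) in DESeq2 and 1 (Sesn2) without the filter, and 0 in the other fits of all libraries. The pathway lists had 2 calls in the exact test, 2 in the likelihood ratio test, 9 in DESeq2, 13 without the filter and 3 with total counts. Leaving out 1 library gave 13 to 1619 loci (13 without morphine 1, 359 without control 1, 604 without morphine 2, 1619 without control 2), 0 to 2 of the 10 genes (Sesn2 and Phgdh without control 2) and 0 to 10 pathway genes (10 without control 2, 2 without morphine 2). A lone library was then assumed to vary like the other condition. Of 126 re-estimates of the 10 genes with an adjusted p (4 in DESeq2 had none), 111 kept sign and side of the threshold, 4 passed it and 11 changed sign, none of these past the threshold. Under the offset the sign changed in Atf4 (-0.0436; -0.0433 with the block), Chac1 (-0.0596; -0.0590) and Phgdh (-0.0108; -0.0066). Atf3 became 0.0119 with total counts and -0.1132 to 0.0961 on leaving out 1 library (0.0158 without control 1, 0.0961 without morphine 2), Asns -0.0459 to 0.0081 (0.0081 without control 2) and Phgdh -0.0132 to 0.3119. Ddit3, Trib3, Sesn2, Psat1 and Shmt2 kept their sign in every fit, over ranges of 0.09 to 0.28, 0.0028 to 0.26, 0.15 to 0.27, -0.11 to -0.05 and 0.01 to 0.17; on leaving out 1 library Trib3 ran from 0.06 to 0.26, Shmt2 from 0.05 to 0.17, Atf4 from 0.01 to 0.10 and Chac1 from 0.02 to 0.18. The number of the 10 genes with a promoter peak in both libraries of a condition was 0 within 1 kb and within 3 kb. Within 3 kb, Chac1 had a peak in control 2 alone. The other peak settings only took away peaks or libraries, so they could return only 0 and add nothing. The causes of these shifts were not tested.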
